A study of Bos taurus with 33 samples.

Results

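Growth factors of the transforming growth factor beta (TGF-beta) family reach a cell through a type II receptor that phosphorylates a type I receptor, which in turn phosphorylates receptor SMADs that enter the nucleus with the common partner SMAD4. The oocyte secretes growth differentiation factor 9 (GDF9) and bone morphogenetic protein 15 (BMP15), and the cumulus cells (CC) around it carry the receptors for both. BMPR2 is the type II receptor of both ligands. GDF9 is received with TGFBR1 and signals to SMAD2 and SMAD3, and BMP15 is received with BMPR1B and signals to SMAD1 and its close relatives.

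The transcripts described are those of 10 genes, 6 receptors (BMPR2, TGFBR2, BMPR1A, BMPR1B, TGFBR1 and ACVR1B) and 4 SMADs (SMAD1, SMAD2, SMAD3 and SMAD4), chosen by name as core members of the pathway. They are 10 of the 16279 genes in the oocyte table and of the 16244 in the CC table, and all 10 were retained in both cell types because they reached 5 CPM (reads per 1000000 reads on genes) in enough pools (4 of oocytes, 5 of CC). Each library was made from 4 oocytes, or from the CC that had surrounded 4 oocytes, aspirated from pre-ovulatory follicles of suckled postpartum Hereford-Angus crossbred cows about 23 h after a GnRH (gonadotropin-releasing hormone) injection or estrus (a sample label gives 20 h). In cows that had not shown estrus the gonadotropin surge was induced with a second injection of GnRH, and their follicles were classified as small (up to 11.7 mm, 6 pools of each cell type) or large (from 12.7 mm, 6 pools of each). In cows that showed estrus the surge was their own and the follicles were classified as spontaneous (11.7 to 14.0 mm, 4 oocyte and 5 CC pools). All cows, spontaneous ones included, had first received GnRH and then prostaglandin F2 alpha, so that no group was free of hormone treatment. A pool is a mixture of complexes, and a value is therefore that of several animals.

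Reads on genes numbered 7664375 to 17934916 in oocyte pools and 1911600 to 5772431 in CC pools. Depth differed by classification. The median was 3276812 in small, 4121436 in large and 5126690 in spontaneous CC pools. In oocytes it was 12282353, 12614743.5 and 14941112. A transcript without a read could have had up to 3, which were worth 0.167 to 0.391 CPM in oocytes and 0.520 to 1.57 CPM in CC. Of 11 oocyte markers, 10 were found in oocytes, with a summed level of 8964 to 13244 CPM, and 6 in CC, with a summed level of 0 to 7.83 CPM. The 14 cumulus and granulosa markers summed to 12291 to 33195 CPM in CC and to 480.0 to 4042 CPM in oocytes. Of these, HAS2, the hyaluronan synthase of cumulus expansion, went against its label, with 193 ± 34.5 CPM in oocytes and 75.5 ± 48.2 CPM in CC (SD, n = 16 and 17). Markers of theca and stroma summed to 603 to 4292 CPM in CC, and those of white blood cells to 30.8 to 219 CPM. The RNA was amplified and carried no molecular identifiers, so floors and counting errors cover the counting of reads only. In such bulk pools fewer cells of a type and less RNA per cell cannot be told apart.

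**Figure D1:**
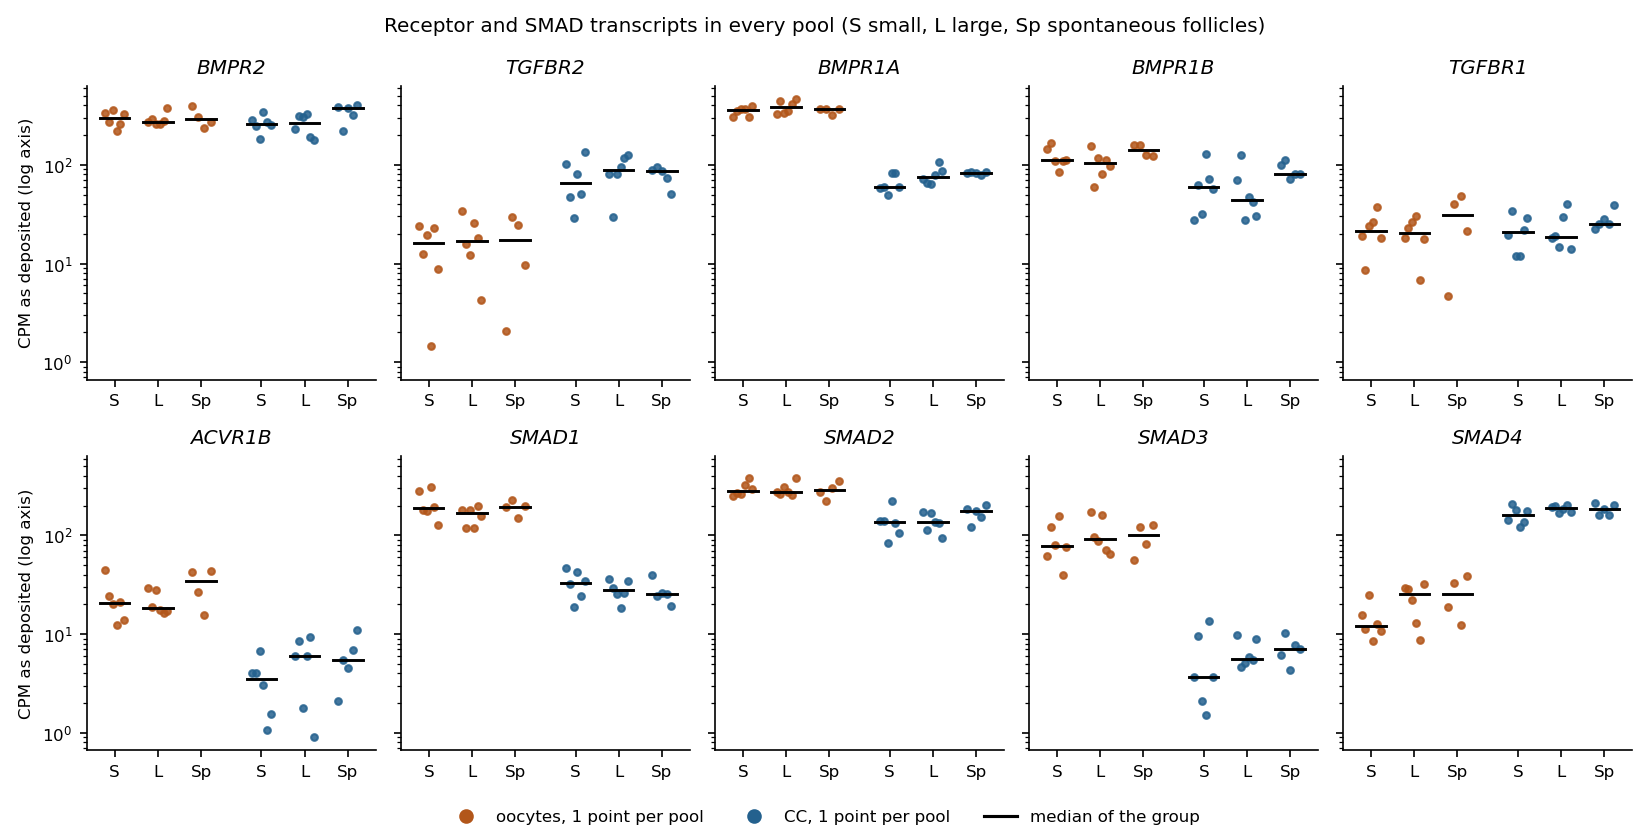
Level of each transcript in every pool, in CPM as deposited on a log axis, with oocyte pools in orange, CC pools in blue and a line at each group's median; S, L and Sp are small, large and spontaneous follicles. Oocytes and CC separate fully for BMPR1A, ACVR1B, SMAD1, SMAD2, SMAD3 and SMAD4 (background 36.3% of all transcripts). Follicle classifications of the same cell type overlap for every transcript shown. The share of all transcripts for which they overlap was not counted.

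Oocytes and CC differed in 8 of the 10 transcripts, at a Benjamini-Hochberg adjusted p under 0.05 in limma's moderated test on log2(CPM + 1) over 16 oocyte and 17 CC pools, with follicle classification as a covariate. SMAD1, SMAD2, SMAD3, BMPR1A, BMPR1B and ACVR1B were higher in oocytes, and SMAD4 and TGFBR2 were higher in CC. The same test called 87.3% of all 11431 transcripts, 46% as higher in oocytes and 41.3% as higher in CC, so that a count of 8 of 10 is close to the background. The pools of the 2 cell types did not overlap for 6 of the 10 (background 36.3%). Log2 differences are oocytes minus CC throughout, and their median was 1.03 over the 10 transcripts and 0.19 over all transcripts tested. The median over all transcripts depended on scaling, since it was -0.20 when pools were scaled by median-of-ratios, and a value near 0 could change sign with it. The median of the 10 transcripts was then 0.61.

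BMPR2, the type II receptor that GDF9 and BMP15 share, was at 219 to 396 CPM (median 277) in oocytes and 177 to 405 CPM (median 287) in CC. The cell types overlapped almost completely, and the log2 difference was 0.13 (SE 0.109), with a 95% interval of -0.09 to 0.35 (limma adjusted p = 0.258). Its sign followed the scaling: under median-of-ratios it was -0.29 and passed the threshold, as it did in DESeq2 at -0.31. TGFBR2, the type II receptor of TGF-beta ligands, was at 1.47 to 33.9 CPM (median 17.1) in oocytes and 28.8 to 137 CPM (median 81.1) in CC. It was lower in oocytes by a log2 difference of -2.38 (SE 0.305) (limma adjusted p = 4.32e-09) and by 5.21-fold on the log2(CPM + 1) scale, although the 2 highest oocyte pools reached into the CC range. Within oocytes TGFBR2 spread 23.0-fold between pools, and its lowest pools, small replicate 4, spontaneous replicate 1 and large replicate 6, held 1.47, 2.06 and 4.31 CPM, 1 in each classification.

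Among type I receptors, BMPR1A, which receives BMP2 and BMP4 among other ligands, was at 305 to 461 CPM (median 366) in oocytes and 49.7 to 107 CPM (median 78.5) in CC. The lowest oocyte pool lay well above the highest CC pool, and the log2 difference was 2.33 (SE 0.0885), or 5.01-fold (limma adjusted p = 1.99e-24). BMPR1B, the type I receptor used by BMP15, was at 60.3 to 166 CPM (median 114) in oocytes and 27.6 to 130.3 CPM (median 70.2) in CC. Its pools overlapped, and it was higher in oocytes by 0.98 (SE 0.181) on the log2 scale (limma adjusted p = 5.98e-06), although the size fell to 0.46 in DESeq2. TGFBR1, the type I receptor that GDF9 shares with TGF-beta ligands, was at 4.65 to 48.2 CPM (median 22.02) in oocytes and 11.8 to 39.8 CPM (median 22.1) in CC. No difference was detected, at -0.10 (SE 0.243) with an interval of -0.59 to 0.39 (limma adjusted p = 0.700), but under median-of-ratios the value was -0.50 and passed the threshold. ACVR1B, the type I receptor of activin, was at 12.3 to 44.8 CPM (median 20.6) in oocytes and 0.903 to 11.02 CPM (median 4.54) in CC, a log2 difference of 2.27 (SE 0.248) (limma adjusted p = 9.94e-11). In CC it rested on few reads, 4 to 50 per pool.

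SMAD1, SMAD2 and SMAD3, the receptor SMADs among the 10 transcripts, were higher in oocytes, and their common partner SMAD4 was lower. SMAD1, of the BMP branch, was at 118 to 313 CPM (median 181) in oocytes and 18.2 to 46.6 CPM (median 26.0) in CC, a log2 difference of 2.66 (SE 0.138), or 6.31-fold. SMAD2, which with SMAD3 carries activin, TGF-beta and GDF9 signals, was at 224 to 385 CPM (median 276) in oocytes and 83.2 to 221 CPM (median 141) in CC, a difference of 1.08 (SE 0.112). The lowest oocyte pool and the highest CC pool were close for SMAD2, at 224 and 221 CPM. SMAD3 was at 39.3 to 172 CPM (median 84.1) in oocytes and 1.52 to 13.7 CPM (median 5.86) in CC, and its difference of 3.82 (SE 0.219), or 14.1-fold, was the largest among the 10 transcripts. Between 4 and 64 SMAD3 reads were found in a CC pool. SMAD4 was at 8.42 to 38.5 CPM (median 17.1) in oocytes and 122 to 215 CPM (median 180.5) in CC. Every CC pool exceeded every oocyte pool, and the difference was -3.17 (SE 0.163), or 9.03-fold lower in oocytes. The limma adjusted p-values were 4.38e-20 for SMAD1, 2.89e-11 for SMAD2, 9.65e-19 for SMAD3 and 2.99e-20 for SMAD4, and these 4 calls, with those of BMPR1A, BMPR1B, TGFBR2 and ACVR1B, kept their direction and call under all 12 alternatives and without any 1 of the 33 pools.

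**Figure D2:**
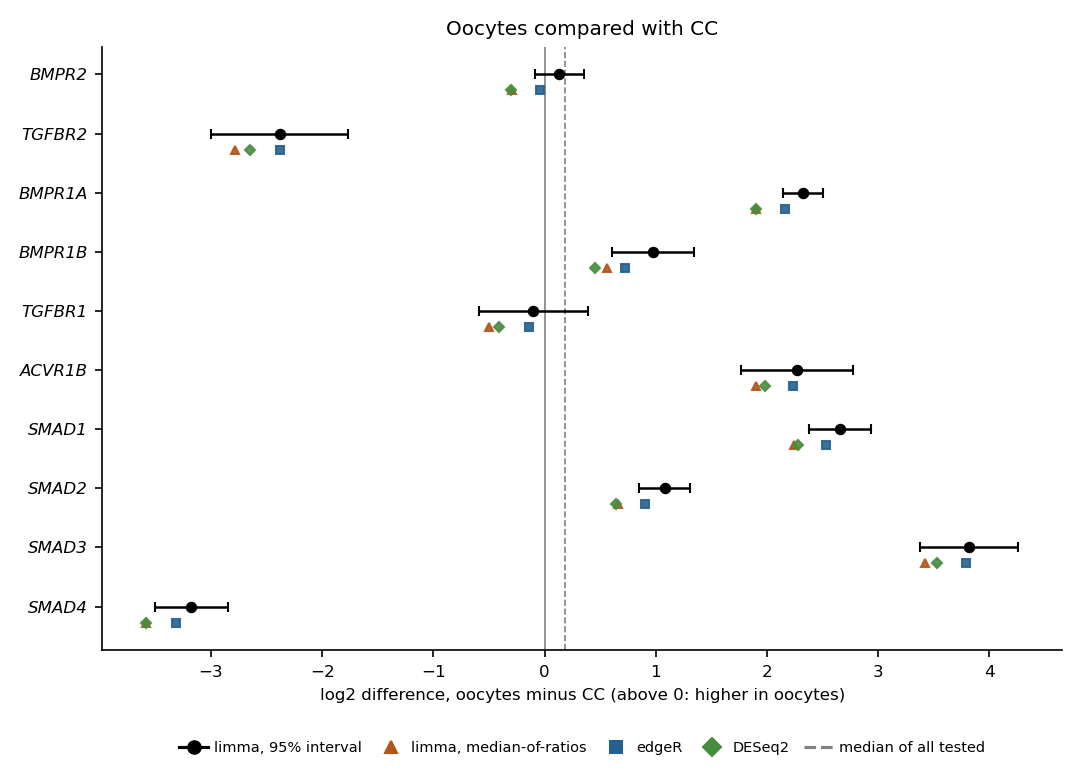
Log2 difference between oocytes and CC for each transcript (horizontal axis, oocytes minus CC), as a black point with its 95% interval from limma, with the value from median-of-ratios scaling, edgeR and DESeq2 below it. SMAD3 lies farthest to the right at 3.82 and SMAD4 farthest to the left at -3.17, and only BMPR2 changes side between these methods.

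Ratios of reads between 2 genes of 1 pool do not depend on depth or scaling, and were compared between cell types only, because a ratio of reads also reflects transcript lengths. These ratios were chosen after the values were seen and carry no test. For every 100 SMAD2 reads there were 10.2 to 63.1 (median 29.4) SMAD3 reads in oocytes and 0.688 to 10.2 (median 4.01) in CC, so that the lowest oocyte pool and the highest CC pool, both small replicate 5, touched without overlapping. For every 100 reads of SMAD1, SMAD2 and SMAD3 together there were 1.06 to 5.97 (median 3.09) SMAD4 reads in oocytes and 46.0 to 173 (median 93.4) in CC, with no overlap. Between type I receptors there were 209.5 to 732 (median 292) BMPR1A reads for every 100 BMPR1B reads in oocytes and 51.9 to 286 (median 106) in CC. Between type II receptors there were 0.520 to 12.6 (median 5.47) TGFBR2 reads for every 100 BMPR2 reads in oocytes and 9.44 to 70.8 (median 23.5) in CC. Both receptor ratios overlapped between cell types.

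**Figure D3:**
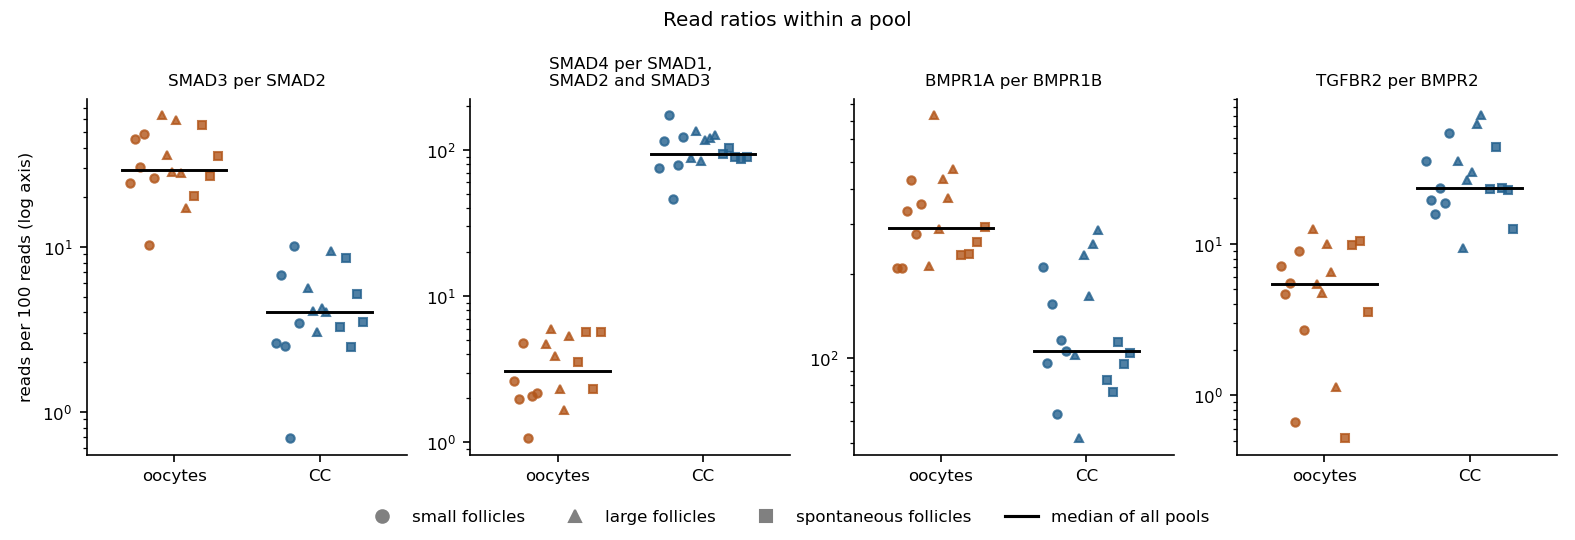
Reads of 1 transcript for every 100 reads of another in the same pool (vertical log axis), for oocyte pools in orange and CC pools in blue, with symbols for follicle classification and a line at the median. The SMAD4 ratio separates the cell types fully, and the SMAD3 ratio is 10.2 in both the lowest oocyte pool and the highest CC pool.

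The level of a transcript in the opposite cell type was set beside that of cell type markers. SMAD3 stood in CC at 6.53% of its mean oocyte level, and SMAD1, ACVR1B and BMPR1A at 15.9, 20.0 and 20.6%. The 6 oocyte markers found in CC stood there at 0.00277 to 0.473% of their oocyte level. In the other direction, SMAD4 and TGFBR2 stood in oocytes at 11.2 and 20.6% of their mean CC level, and the 13 cumulus and granulosa markers with at least 5 CPM in CC stood in oocytes at a median of 6.94% (range 1.36 to 255%). The upper end was HAS2. Of the 13 markers 4 stood above SMAD4 (HAS2, CYP19A1, NR5A1 and AMH) and 2 above TGFBR2 (HAS2 and CYP19A1, the latter at 23.2% with a mean of 7.17 CPM in CC). The part of CC RNA in the SMAD4 and TGFBR2 levels of oocytes was not tested. Across the 16 oocyte pools, SMAD4 and the summed cumulus and granulosa markers had a Pearson r of 0.0058 and a Spearman rho of 0.018 (permutation p = 0.983 and 0.951), and TGFBR2 and these markers had an r of 0.24 and a rho of 0.28 (permutation p = 0.373 and 0.292). Over the 10 transcripts the smallest Benjamini-Hochberg adjusted p of these correlations was 0.834. Among the 13 markers VCAN and HAS2 had the highest means in oocytes, at 1269 and 193 CPM. The sum thus leaned on VCAN and on a gene that went against its label, and cannot decide the part of CC RNA. Without the 2 pools farthest from the median marker level, r was -0.28 for SMAD4 and 0.42 for TGFBR2. Within small, large and spontaneous follicles (6, 6 and 4 pools) r was 0.87, -0.26 and -0.63 for SMAD4 and 0.62, -0.55 and 0.61 for TGFBR2, so that the sign of neither was the same in all 3.

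**Figure D4:**
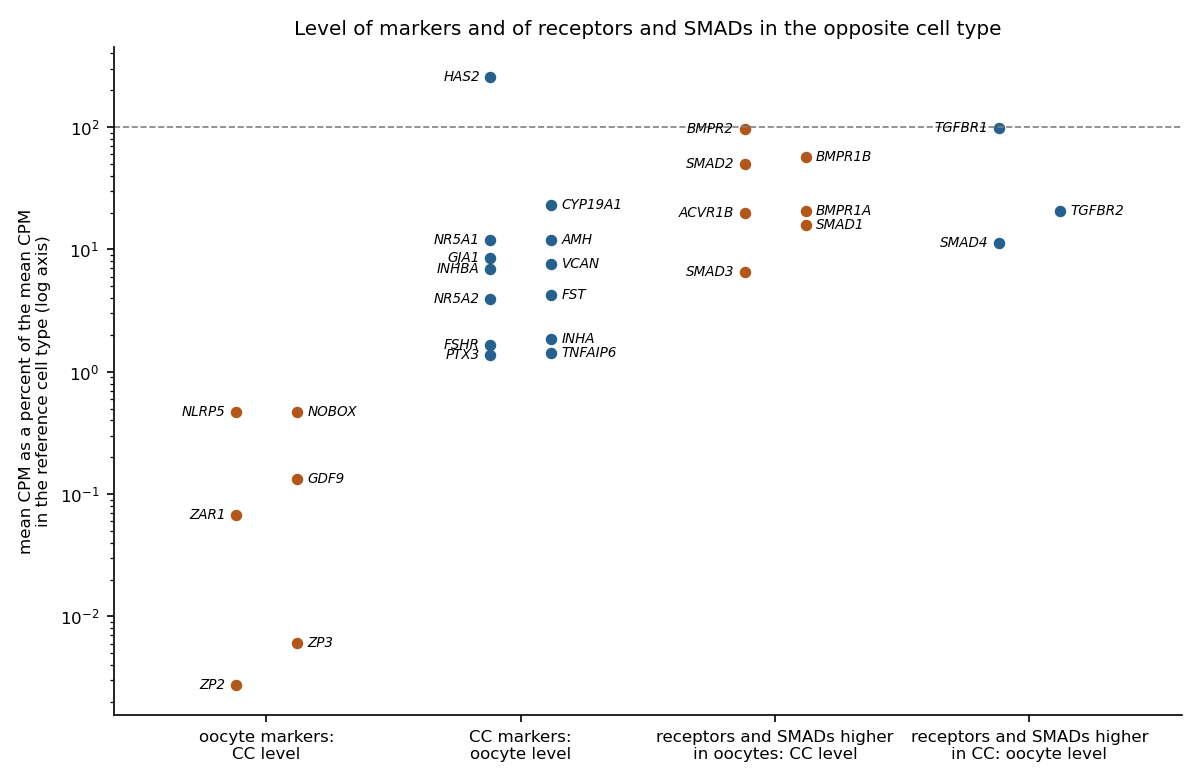
Mean CPM of each gene in 1 cell type as a percent of its mean CPM in the reference cell type (vertical log axis, dashed line at equal levels), for oocyte markers, CC markers and the 10 transcripts. SMAD3 in CC, at 6.53%, lies above all 6 oocyte markers, whereas SMAD4 and TGFBR2 in oocytes, at 11.2 and 20.6%, lie below 4 and 2 of the 13 CC markers.

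Follicle classifications were compared pairwise within each cell type, which asks whether the pathway's transcripts differ with the maturity of the follicle. At a nominal p of 0.01 or less, 0 of the 60 tests (10 transcripts in 6 comparisons) passed in limma, and the unadjusted p was under 0.05 for 2. All transcripts together passed at 0.655% for small versus large, 0.774% for small versus spontaneous and 0.943% for large versus spontaneous in oocytes, and at 0.813, 2.38 and 1.66% in CC. The edgeR and DESeq2 tests on recovered reads also called 0 of the 60. No comparison of classifications separated its pools without overlap for any of the 10 transcripts. The share of all transcripts that did so was not counted, so this is a description only. An exact permutation test of mean CPM, which can go down to 0.00216 with 6 pools against 6, gave 1 p under 0.05 among the 60. Median log2 differences (second minus first) over the 10 transcripts were -0.02, 0.06 and 0.12 in oocytes and 0.15, 0.36 and 0.16 in CC, beside 0.05, 0.05 and 0.01 and 0.05, 0.16 and 0.11 over all transcripts.

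Both tests with an unadjusted p under 0.05 were of BMPR1B in CC. It was at 27.6 to 130.3 CPM (median 59.2) in small and 27.8 to 125 CPM (median 44.5) in large follicles, and at 99.3, 112, 72.4, 81.7 and 81.4 CPM in the 5 spontaneous pools. The spontaneous pools were close together, whereas small and large pools reached both below and above them, so that small replicate 4 and large replicate 2, at 130.3 and 125 CPM, were the highest of all. BMPR1B differed by 0.82 (SE 0.306) on the log2 scale between large and spontaneous follicles (limma p = 0.0156, adjusted p = 0.613, two-sided exact permutation p = 0.113). Between small and spontaneous follicles it differed by 0.66 (SE 0.308) (limma p = 0.0468, adjusted p = 0.580, two-sided exact permutation p = 0.177). Both comparisons share the spontaneous pools. A single pool decided these values: without large replicate 2 the first was 1.09 and passed the threshold (limma adjusted p = 0.0919), and without small replicate 4 the second was 0.90 and passed it as well (limma adjusted p = 0.308). In oocytes BMPR1B was at 85.03 to 166 CPM (median 111) in small and 60.3 to 153 CPM (median 105) in large follicles, and at 160.4, 157, 125 and 124 CPM in the spontaneous pools. The oocyte difference between large and spontaneous follicles was 0.50 (SE 0.243) (limma p = 0.0511, exact permutation p = 0.0571), and it missed the threshold.

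BMPR1A in CC gave the lowest exact permutation p of the 60 tests, 0.0390 for small versus spontaneous follicles. It was at 83.2, 84.5, 83.0, 78.0 and 84.7 CPM in the spontaneous pools and 49.7 to 83.4 CPM (median 59.6) in the small pools, with 4 of the 6 small pools below and 2 inside the spontaneous range. The log2 difference was 0.36 (SE 0.178) (limma adjusted p = 0.598). BMPR2 in CC was at 386, 221, 373, 319.6 and 405 CPM in the spontaneous pools, against 182 to 342 CPM (median 262) in small and 177 to 325 CPM (median 267) in large follicles. Its highest pools were spontaneous but spontaneous replicate 2 lay among the lower ones, and the differences were 0.36 (SE 0.194) from small (limma adjusted p = 0.636) and 0.42 (SE 0.203) from large follicles (limma adjusted p = 0.699). In CC, 9 of the 10 transcripts had a positive difference from small to spontaneous follicles, SMAD1 being the exception at -0.26. Their median was 0.36 beside 0.16 over all transcripts. The number was also 9 under median-of-ratios scaling, with a median of 0.20 beside 0.01 over all transcripts. None of these 9 passed the threshold. The share of all transcripts with a positive difference was not counted.

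In oocytes the lowest limma p after that of BMPR1B was of SMAD1. Its level was 126 to 313 CPM (median 188) in small, 118 to 197 CPM (median 168) in large and 192, 227, 150.05 and 199 CPM in spontaneous follicles. Small replicates 1 and 4, at 278 and 313 CPM, were the highest pools, and the log2 difference from small to large follicles was -0.38 (SE 0.204) (limma p = 0.0737, adjusted p = 0.997, exact permutation p = 0.121). SMAD4 was at 8.42 to 24.8 CPM (median 12.01) in small, 8.77 to 31.9 CPM (median 25.4) in large and 18.6, 32.5, 12.4 and 38.5 CPM in spontaneous follicles. Most small pools were low but the groups overlapped, and the differences from small follicles were 0.59 (SE 0.448) to large and 0.78 (SE 0.533) to spontaneous follicles (limma p = 0.197 and 0.155, exact permutation p = 0.106 and 0.0952). The 95% interval of the second ran from -0.31 to 1.87. Intervals were narrow for BMPR2, BMPR1A and SMAD2 in oocytes, all within 0.43 of 0 in every comparison, and wide for TGFBR2, which reached from -1.70 to 1.56 over the 3.

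**Figure D5:**
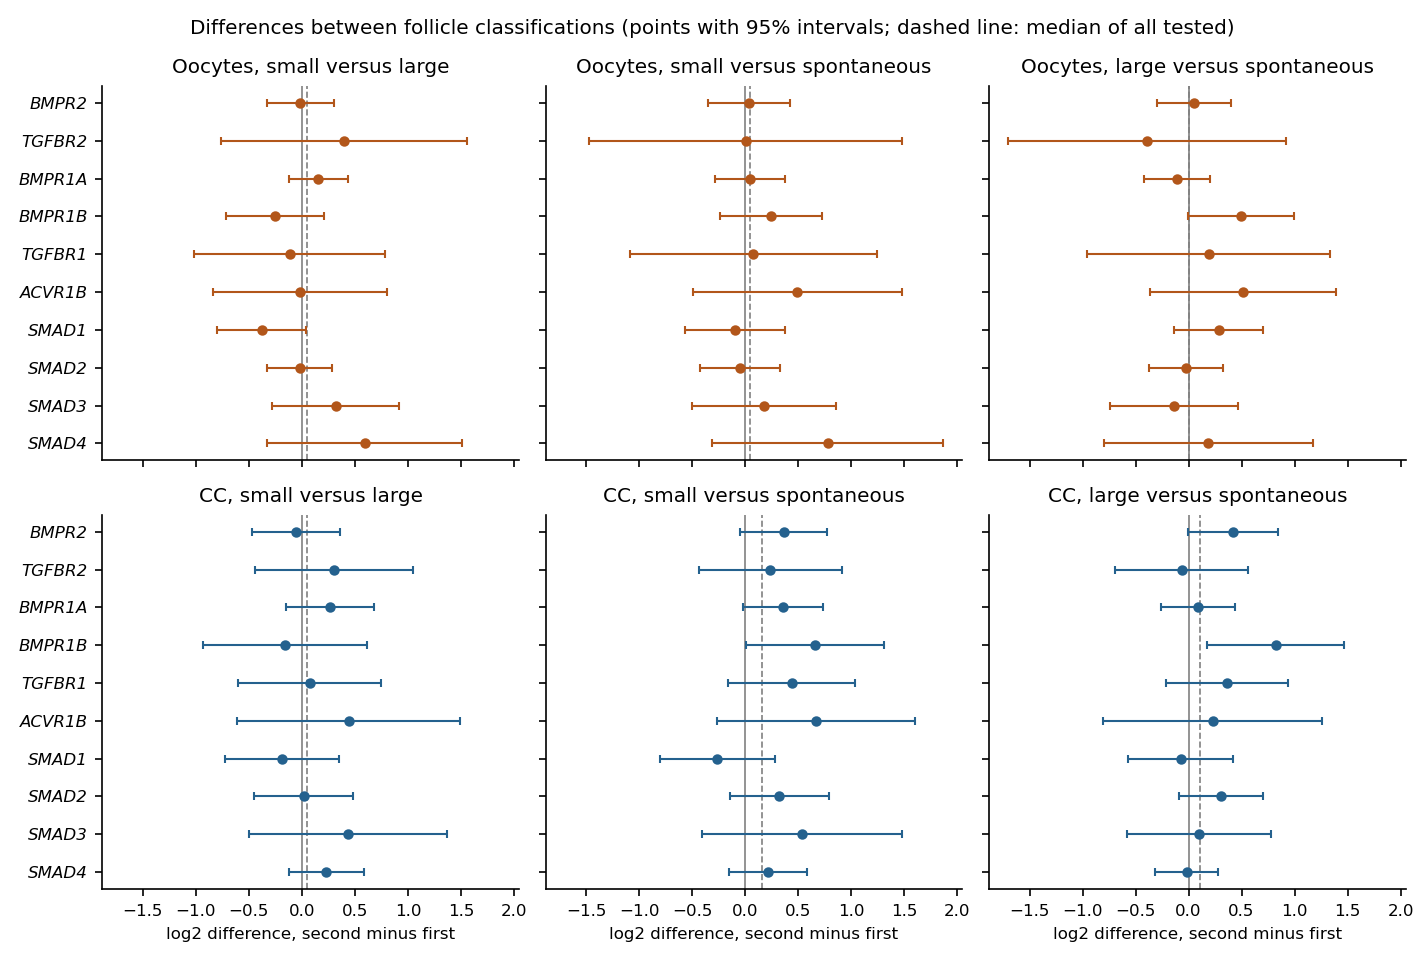
Log2 differences between follicle classifications (horizontal axis, second classification minus first) for each transcript, in oocytes (top) and CC (bottom), as points with 95% intervals from limma; the dashed line is the median of all transcripts tested. Only the intervals of BMPR1B in CC, from small and from large to spontaneous follicles, leave out 0.

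The change between classifications was also compared between cell types, with an interaction contrast in limma. Of 30 tests 0 passed at a nominal p of 0.01, and the smallest p was 0.173, where the background was 1.14% for small to large, 1.35% for small to spontaneous and 0.936% for large to spontaneous follicles. For BMPR1B from small to spontaneous follicles the interaction was -0.41 (SE 0.467), with an interval of -1.36 to 0.53. The difference that oocytes and CC showed in SMAD3, SMAD4, SMAD1, BMPR1A, ACVR1B, TGFBR2, SMAD2 and BMPR1B was found in small, large and spontaneous pools analysed alone.

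Spread between pools, as the coefficient of variation over all pools of a cell type, ran from 12.1% for BMPR1A to 59.3% for TGFBR2 in oocytes, and from 14.9% for SMAD4 to 61.8% for ACVR1B in CC. Counting error alone would give 1.48, 6.94, 3.80 and 22.9% for these. SMAD4, the most even of the 10 in CC, had a coefficient of 49.0% in oocytes. Of the 90 pairs of transcripts within a cell type, 0 were correlated across pools at an adjusted p under 0.05 and 3 had an unadjusted permutation p under 0.05. The closest was BMPR2 with SMAD2 in 17 CC pools, with a Pearson r of 0.75 (permutation p = 0.000760, adjusted p = 0.0684) and a Spearman rho of 0.75 (permutation p = 0.000840, adjusted p = 0.0756). It was 0.58 without the 2 pools farthest from the median of BMPR2, 0.63 under median-of-ratios scaling, and 0.92, 0.36 and 0.98 within small, large and spontaneous follicles.

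For the receptors of GDF9 and BMP15, the retained transcripts with the most similar pattern over pools were ranked by Pearson's r. The ranking is a description without a test, among 9570 transcripts with a symbol in oocytes and 9293 in CC. The top of so many r values over so few pools is high by selection alone. How high it would be without any relation was not tested. In 16 oocyte pools BMPR2 was most like TMCO3 (r = 0.77, rho = 0.65), ZNF207, a microtubule-binding zinc finger protein, (r = 0.75, rho = 0.76) and PIK3R4, a regulatory subunit of phosphoinositide 3-kinase, (r = 0.73, rho = 0.68). BMPR1B was most like PSMF1, a proteasome inhibitor subunit, (r = 0.83, rho = 0.81), DCAF17 (r = 0.82, rho = 0.70) and the calpain CAPN13 (r = 0.79, rho = 0.81). TGFBR1 was most like the kinase NEK9 (r = 0.82, rho = 0.82), ACVRL1, itself a type I receptor of the family, (r = 0.82, rho = 0.52) and SLC35E3 (r = 0.81, rho = 0.72). In 17 CC pools BMPR2 was most like the homeobox factor PROX1 (r = 0.90, rho = 0.86), the histone deacetylase HDAC11 (r = 0.84, rho = 0.76) and ST7L (r = 0.83, rho = 0.74). BMPR1B was most like the complement receptor CR2 (r = 0.81, rho = 0.79), the Wnt receptor FZD1 (r = 0.80, rho = 0.80) and RBMX, an RNA-binding protein, (r = 0.79, rho = 0.81). TGFBR1 was most like LAPTM4A, a lysosomal membrane protein, (r = 0.89, rho = 0.93), the calcium-binding protein RCN2 (r = 0.82, rho = 0.85) and DAP3, a mitochondrial ribosomal protein, (r = 0.80, rho = 0.84).

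Other genes of the pathway were counted in the same way, against the 87.3% of all transcripts that differed between oocytes and CC. Of 15 ligands, 9 were tested and all 9 passed, 3 being higher in oocytes and 6 in CC. Since 5 of the 9 had passed the filter through 1 cell type alone, GDF9 and BMP6 among them, the filter itself favoured a difference in those. GDF9 was at 844 ± 142 CPM in oocytes (SD, n = 16) and 1.12 ± 1.24 CPM in CC (SD, n = 17), and BMP6 was at 60.1 ± 29.7 and 0.708 ± 1.97 CPM. GDF9 was listed at 0 in 4 and BMP6 in 14 of the 17 CC pools. What 3 reads were worth ran from 0.520 to 1.57 CPM by CC pool. Both CC means lie inside that range and not below all of it, so no size is given for their difference. BMP15 was at 1586 ± 207 CPM in oocytes and was not compared. INHA, the inhibin alpha subunit, was higher in CC, at 2262 ± 1067 CPM against 42.2 ± 37.2 CPM in oocytes, a difference of -6.06 (SE 0.331). In CC, INHA was at 1786 ± 886 CPM in large and 3243 ± 1214 CPM in spontaneous follicles (SD, n = 6 and 5), and it passed the threshold between them (log2 difference 0.89, SE 0.289, limma adjusted p = 0.567). The call held in 4 of 9 alternatives. It was lost without a filter, under median-of-ratios scaling, without mitochondrially encoded genes, in edgeR and in DESeq2. It was also lost without large replicates 1, 3, 5 and 6 and spontaneous replicates 3, 4 and 5, each left out in turn. In this comparison 1 of 6 ligands passed, beside 1.66% of all transcripts. Of the latter 141 were higher and 20 lower in spontaneous follicles, or 62 and 56 under median-of-ratios scaling.

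Of 8 other receptors and co-receptors, 5 were tested and all 5 passed between cell types (87.3% of all transcripts), 3 being higher in oocytes, and 4 of the 5 were retained in both cell types. ACVR1, a type I receptor of BMPs, was at 166 ± 33.6 CPM in oocytes and 16.2 ± 7.46 CPM in CC, with a log2 difference of 3.42 (SE 0.174). ACVRL1 was at 7.77 ± 7.49 CPM in oocytes and 0.277 ± 0.373 CPM in CC, where 7 pools were at 0, and was retained through oocytes alone. TGFBR3, the co-receptor betaglycan, was higher in CC, at 144 ± 37.7 CPM against 47.3 ± 15.2 CPM. Of 4 other SMADs, 2 were tested. SMAD5, the relative of SMAD1, was at 268 ± 51.1 CPM in oocytes and 188 ± 26.6 CPM in CC, a difference of 0.55 (SE 0.0914) that fell to 0.13 and missed the threshold under 2 of 12 alternatives, and SMAD9 was lower in oocytes at 2.17 ± 2.71 CPM against 5.47 ± 2.92 CPM in CC, but it was retained through CC alone, so that the filter itself favoured this difference. The inhibitory SMAD6 and SMAD7 were below the filter in both cell types, with means of at most 1.12 CPM.

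Among 17 ligand traps and pathway inhibitors, 14 were tested, 11 of them retained in both cell types, and 13 passed between cell types (87.3% of all transcripts), 9 being higher in oocytes and 4 in CC. NEDD4L, a ubiquitin ligase that acts on SMAD2 and SMAD3, was higher in oocytes, at 335 ± 66.3 CPM against 9.97 ± 6.52 CPM, with a log2 difference of 5.21 (SE 0.221). FST, the activin-binding follistatin, and SKIL, a nuclear repressor of SMADs, were higher in CC, at 237 ± 97.8 and 103 ± 23.7 CPM against 10.1 ± 10.6 and 4.32 ± 4.68 CPM, with differences of -4.93 (SE 0.367) and -4.83 (SE 0.337). FKBP1A, which binds type I receptors, was at 420.2 ± 99.9 CPM in small, 644 ± 123 CPM in large and 624.9 ± 61.5 CPM in spontaneous CC pools (SD, n = 6, 6 and 5). It was higher in large than small follicles by 0.63 (SE 0.193, limma adjusted p = 0.999) and in spontaneous than small by 0.61 (SE 0.188, limma adjusted p = 0.390). Its direction was the same under all 9 alternatives, and each call held in 5 of them, being lost under median-of-ratios scaling, without mitochondrially encoded genes, in edgeR and in DESeq2. The call against large follicles was also lost without small replicate 4, and that against spontaneous follicles without small replicates 2 and 4 and spontaneous replicates 2 and 5, each left out in turn. BAMBI, a decoy receptor without a kinase domain, was at 2.61 ± 2.97 CPM in small and 12.6 ± 7.69 CPM in spontaneous CC pools, a log2 difference of 2.09 (SE 0.562, limma adjusted p = 0.295). BAMBI passed in 8 of 9 alternatives and without any 1 of the 11 pools, but the call was lost in edgeR. Its levels were a few CPM, with 2 of the 17 CC pools at 0. In CC 1 of 11 genes of this list passed for small versus large (0.813% of all transcripts) and 2 of 11 for small versus spontaneous follicles (2.38%). All were higher in the second classification, as were 67 of the 79 and 221 of the 231 transcripts passing in all, or 44 of 70 and 79 of 126 under median-of-ratios scaling.

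Of 11 target genes of SMADs, 7 were tested, all retained in both cell types, and 5 passed between cell types (87.3% of all transcripts), 2 being higher in oocytes and 3 in CC. ID3 and ID2, inhibitors of DNA binding induced by BMPs in many cells, went opposite ways. ID3 was at 876 ± 286 CPM in oocytes and 11.7 ± 8.87 CPM in CC, a difference of 6.38 (SE 0.247), and ID2 was at 15.5 ± 16.2 CPM in oocytes and 118 ± 44.7 CPM in CC, a difference of -3.41 (SE 0.375). Between follicle classifications none of the 7 target genes passed in either cell type. All transcripts together passed there at 0.655 to 0.943% in oocytes and at 0.813 to 2.38% in CC. A count of 0 in a list this short is therefore close to the background. On the other lists 0 of 5 receptors and 0 of 1 SMAD passed in oocytes, 0 of 4 receptors and 0 of 2 SMADs in CC, and 0 of 8 ligands and 0 of 14 inhibitors passed in oocytes.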

How the data were processed

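RNA was amplified with the Ovation RNA-Seq V2 system and sequenced. Per the study's methods, the authors trimmed reads with fqtrim, mapped them with Hisat2 (bovine assembly UMD3.1), assigned them to genes of the Ensembl annotation using featureCounts, and deposited CPM (reads per 1000000 reads on genes), 1 table for oocytes and 1 for CC, without replicate pooling beyond the 4 complexes of a library. Amplification and the use of the full eluate can add spread between pools. In these CPM values 100% came out as whole reads (within 0.02), and the recovered reads gave depth and were tested with edgeR 4.0.16 and DESeq2 1.42.0 as alternatives. No column was left unmatched to a sample.

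Transcripts with at least 5 CPM in 4 or more oocyte pools or 5 or more CC pools were tested with limma 3.58.1 (trend, moderated test) in R 4.3.3 on log2(CPM + 1). Follicle classifications were called at a nominal p of 0.01 or less, and oocyte comparisons with small follicles also had to pass without small replicate 3. Oocytes and CC were compared on CPM rescaled over the 14980 genes in both tables, with classification as covariate, at a Benjamini-Hochberg adjusted p under 0.05, and interactions at a nominal p of 0.01 or less. Exact permutation tests used scipy 1.17.1, and correlations across pools 100000 permutations. The fits were also run on simulated counts, with differences larger than those reported here between classifications. That run does not show how often smaller differences would be found. The alternatives were a pseudocount of 0.1, other filters, CPM as deposited, median-of-ratios scaling, CPM without mitochondrially encoded genes, the replicate number as a block, all 3 classes in 1 fit, edgeR, DESeq2, each classification alone and each pool left out.

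Oocytes and CC came from the same complexes, and their pools of small and large follicles carry the same numbers. No label states that same-numbered pools correspond. Deviations from group means in same-numbered pools had correlations of only -0.040 to 0.077 over 12 pairs, and the block was not in the reported fit. No 2 libraries agreed within sampling noise. The p-values set a difference against the spread between pools. Between oocytes and CC every pool was fitted as independent, although both cell types came from the same complexes. The 10 genes and the lists were chosen with earlier results of these data known. Named beside the 10 were, from each other pathway list, every gene past the threshold between classifications and up to 3 with the largest difference between oocytes and CC, and for the receptors of GDF9 and BMP15 the 3 transcripts most correlated over pools. Symbols are those of the deposited tables. The values of 1 gene so named are not reported here.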

Additional observations from a re-analysis of the deposited data

Results flagged for a closer look

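Among 60 groups of 4 to 6 pools (10 transcripts in 6 groups), 3 had a pool far from the others by Dixon's criterion, at which about 1 group in 20 is expected by chance. BMPR2 was at 379 CPM in oocyte large replicate 6, against 258 to 292 CPM in the other large pools. BMPR1A was at 324 CPM in oocyte spontaneous replicate 3, against 365 to 372 CPM, and at 78.0 CPM in CC spontaneous replicate 4, against 83.0 to 84.7 CPM. In the narrow BMPR1A groups a gap of a few CPM was enough.

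None of the 10 transcripts changed differently in oocytes and CC at a nominal p of 0.01. From small to large follicles 1 of 14 ligand traps and pathway inhibitors passed, beside 1.14% of all transcripts. From small to spontaneous follicles 1 of these 14 and 1 of 7 SMAD target genes passed, beside 1.35% of all transcripts. On the lists of ligands, other receptors and other SMADs 0 passed. For FKBP1A the oocyte change minus the CC change was -0.72 on the log2 scale from small to large follicles (limma adjusted p = 0.864) and -0.90 from small to spontaneous follicles (limma adjusted p = 0.615). These passed in 4 of 9 and 5 of 8 alternatives, and without 22 and 33 of the 33 pools left out in turn. For ID2 it was 2.55 from small to spontaneous follicles (limma adjusted p = 0.726), which passed in 6 of 8 alternatives and without 25 of the 33 pools. The 3 values share the small pools.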

How the results depend on the processing

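The 8 differences between oocytes and CC kept their direction and call under 12 alternatives and without any 1 pool, and the number past the threshold was 8 except under median-of-ratios scaling (10) and in DESeq2 (9). BMPR2, oocytes minus CC, changed sign to -0.29 under median-of-ratios scaling (limma adjusted p = 0.00806), -0.31 in DESeq2 (adjusted p = 0.00534), -0.17 without mitochondrially encoded genes, -0.041 in edgeR and -0.12 in spontaneous pools alone. TGFBR1 was 0.068 in small pools alone. The cause was not tested.

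Of the class differences, 21 of 540 values under other settings and 68 of 660 without 1 pool changed sign, and none of those passed the threshold. From small to spontaneous oocytes these were BMPR2 at -0.0070 and TGFBR2 at -0.033 under median-of-ratios scaling, TGFBR2 at -0.00074 with a pseudocount of 0.1 and -0.011 without mitochondrially encoded genes, and BMPR1A at -0.00035 in edgeR and -0.0071 in DESeq2. From small to large CC, TGFBR1 was -0.023 without mitochondrially encoded genes and -0.0030 in DESeq2, and SMAD2 was -0.037 under median-of-ratios scaling, -0.086 without mitochondrially encoded genes, -0.047 in edgeR and -0.049 in DESeq2. From large to spontaneous CC, BMPR1A was -0.012, -0.025 and -0.028 under median-of-ratios scaling, edgeR and DESeq2. With the replicate number as a block, SMAD2 was 0.048 and SMAD3 -0.096 from small to spontaneous oocytes, TGFBR1 -0.16 and SMAD2 0.026 from large to spontaneous oocytes, and TGFBR2 0.060 and ACVR1B -0.076 from large to spontaneous CC. Within a cell type, pools of different classifications share only a number (correlations of same-numbered deviations from -0.19 to 0.22), and the block changed no call of the 10 transcripts.

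Without 1 pool at a time, log2 differences from small to large oocytes ran from -0.094 to 0.046 for BMPR2, -0.35 to 0.15 for TGFBR1, -0.073 to 0.73 for TGFBR2, -0.16 to 0.19 for ACVR1B and -0.098 to 0.056 for SMAD2. Those from small to spontaneous oocytes ran from -0.10 to 0.14 for BMPR2, -0.30 to 0.74 for TGFBR1, -0.47 to 0.69 for TGFBR2, -0.23 to 0.031 for SMAD1, -0.15 to 0.068 for SMAD2 and -0.023 to 0.41 for SMAD3. Those from large to spontaneous oocytes ran from -0.087 to 0.16 for BMPR2, -0.18 to 0.86 for TGFBR1, -0.82 to 0.29 for TGFBR2, -0.13 to 0.090 for SMAD2, -0.29 to 0.092 for SMAD3 and -0.046 to 0.47 for SMAD4. Those from small to large CC ran from -0.16 to 0.043 for BMPR2, -0.43 to 0.081 for BMPR1B, -0.10 to 0.23 for TGFBR1 and -0.11 to 0.16 for SMAD2. Those from large to spontaneous CC ran from -0.35 to 0.084 for TGFBR2, -0.076 to 0.49 for ACVR1B, -0.22 to 0.034 for SMAD1, -0.031 to 0.24 for SMAD3 and -0.074 to 0.031 for SMAD4. Those between oocytes and CC ran from -0.18 to 0.068 for TGFBR1. The number of transcripts past the threshold ran from 0 to 1 in both CC comparisons with spontaneous follicles, through BMPR1B as given above.

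Over all transcripts, the number passing from small to spontaneous CC was 231 (221 higher and 10 lower in spontaneous), against 126 (79 and 47) under median-of-ratios scaling, 127 without mitochondrially encoded genes, 128 in edgeR and 141 without spontaneous replicate 5. For large to spontaneous CC it was 161, and 88 without spontaneous replicate 4. Under median-of-ratios scaling the split of higher and lower moved for large to spontaneous CC from 141 and 20 to 62 and 56, for small to large CC from 67 and 12 to 44 and 26, and for small to large oocytes from 45 and 21 to 39 and 31. Small to large CC had 79 passing, and 121 without a filter and 137 with all 3 classes in 1 fit. The oocyte comparisons had 66, 78 and 95, and 113, 121 and 181 in DESeq2, with 100 and 148 for the first and last without a filter and 42 for small to spontaneous with the block. Interactions had 130, 154 and 107, and 253, 294 and 236 in edgeR and 351, 397 and 318 in DESeq2, with 71 for the first under the block and 100 for the second with the filter in both tables. Depth limits ACVR1B and SMAD3 most, at 4 reads in their lowest CC pools.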

Other observations

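Besides BMPR2 with SMAD2 in CC, 2 pairs of transcripts had an unadjusted permutation p under 0.05 across pools, and neither passed the adjustment over 90 pairs. BMPR1B and ACVR1B in 16 oocyte pools had a Pearson r of 0.60 (permutation p = 0.0125, adjusted p = 0.561) and a Spearman rho of 0.59 (permutation p = 0.0187), with an r of 0.72 without the 2 pools farthest from the median of BMPR1B. TGFBR1 and SMAD4 in 17 CC pools had an r of 0.50 (permutation p = 0.0391, adjusted p = 0.561) and a rho of 0.50 (permutation p = 0.0415), with an r of 0.40 without the 2 farthest pools of TGFBR1. Within small, large and spontaneous follicles r was 0.76, 0.61 and 0.30 for the first pair and 0.56, 0.69 and 0.26 for the second.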
